A study of Homo sapiens with 6 samples.

Results

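The course of transcripts through G1, G1/S and S was followed in human embryonic stem cells (hESCs), using the 3 hESC libraries of a series of 6. The libraries were taken by their labels from H9 cells, an established hESC line, at passage 51: 1 labelled G1 at 0 h, 1 labelled G1/S at 2 h and 1 labelled S at 3 h. All 3 came from undifferentiated cells grown on growth factor reduced matrigel in medium conditioned by primary mouse embryonic fibroblasts. The zero point of the hours and the means of synchronisation are not given in the sources at hand. The other 3 libraries come from endoderm that H9 cells formed in 6 days with activin A at 100 ng/ml, labelled G1 at 0 h, G1/S at 3 h and S at 6 h. Their values are set beside the hESC values where they bear on a result. Poly(A) RNA was primed with oligo dT, amplified in 15 PCR cycles and read at the 3' end of transcripts. The deposited table holds 14686 genomic regions in which read ends gather, 10368 with a gene name and 4318 without, and every region has a value in each of the 3 libraries.

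Each phase has 1 library, so no replicate error exists and no p-value is given. Values are signals, that is reads divided by 1 size factor per library. A difference is that of log2(value + 1), which understates the change of weak regions. Where 3 signals follow a gene's name without phases, their order is G1, G1/S, S. A region counts as past 2-fold where its difference is at least 1 either way. Intervals given in brackets are exact 95% intervals from the read counts. These cover counting error only, as PCR copies are not separate molecules. The G1 library holds 4972977 reads, the G1/S library 4194957 and the S library 6203079, so that 1 read is worth a signal of 0.757, 1.04 and 0.591. By a rule of 3 reads, a count of 0 allows a signal of up to 2.27, 3.12 and 1.77 in these libraries. The exact intervals reach higher, to 2.79 at 0 reads in G1 and 3.84 at 0 reads in G1/S. The G1/S library is the shallowest, with 182 regions at 0 against 133 in G1 and 13 in S. In bulk libraries, fewer cells of a kind and less RNA per cell cannot be told apart.

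In a dividing cell, the passage from G1 to S is driven by cyclin D and cyclin E with their kinases, which release E2F factors from the retinoblastoma protein. E2F factors switch on genes that license origins, copy DNA and supply nucleotides. Embryonic stem cells are known for a short G1, a high level of cyclin E through the cycle and a dependence on the pluripotency factors POU5F1 and SOX2.

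Genes that E2F factors are known to control are shown first, since they took 3 different courses in the hESC libraries. CDC6, which loads the replicative helicase onto origins, was lowest in G1/S. E2F1, itself a factor of the pathway, was lowest in S, and MCM2, a helicase subunit, was highest in G1/S. The RefSeq promoters of these genes (250 bases before the start of the transcript to 50 after it, build GRCh38.p14) hold matches to the E2F-type motif TTTNGCGC, searched on both strands and set in capitals: 1 in CDC6, 1 in E2F1 and 2 in MCM2, where matches on both strands overlap. The windows are chr17:40287629-40287928 (plus strand) for CDC6, chr20:33686336-33686635 (minus strand) for E2F1 and chr3:127598161-127598460 (plus strand) for MCM2.
CDC6: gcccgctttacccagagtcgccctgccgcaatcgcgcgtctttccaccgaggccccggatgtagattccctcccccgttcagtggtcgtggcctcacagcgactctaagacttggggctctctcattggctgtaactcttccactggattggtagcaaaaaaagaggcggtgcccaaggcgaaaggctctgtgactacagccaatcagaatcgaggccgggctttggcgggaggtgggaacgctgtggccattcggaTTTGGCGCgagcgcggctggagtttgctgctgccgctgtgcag
E2F1: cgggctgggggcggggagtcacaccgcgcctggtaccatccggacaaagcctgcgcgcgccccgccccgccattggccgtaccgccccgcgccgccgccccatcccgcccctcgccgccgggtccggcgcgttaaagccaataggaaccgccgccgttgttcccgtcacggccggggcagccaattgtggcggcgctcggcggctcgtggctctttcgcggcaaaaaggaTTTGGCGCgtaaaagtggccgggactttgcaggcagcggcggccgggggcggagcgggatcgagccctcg
MCM2: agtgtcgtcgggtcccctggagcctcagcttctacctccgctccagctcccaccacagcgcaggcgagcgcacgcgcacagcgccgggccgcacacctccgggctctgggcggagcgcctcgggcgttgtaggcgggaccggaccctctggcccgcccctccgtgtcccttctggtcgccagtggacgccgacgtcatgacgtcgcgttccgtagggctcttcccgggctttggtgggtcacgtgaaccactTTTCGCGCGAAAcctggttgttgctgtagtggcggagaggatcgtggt
The same motif is in 1.83% of all 27305 promoters of the table and in 3.08% of the 6422 measured names with a promoter. It is in 11 of the 19 promoters matched by symbol for the genes of origin licensing and G1/S control, and in 6 of 34 for the replication fork and nucleotide supply. Among the 11 licensing genes with a match, 1 was past 2-fold higher and 2 lower in G1/S than in G1, beside 7.47% higher and 17.9% lower over all 9588 gene names. A match is a run of letters and no evidence of binding.

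CDC6 had a signal of 155, 59.3 and 210.3. Its ratio of S to G1/S was 3.54 (interval 2.67 to 4.77), and the counting intervals of the 3 libraries do not overlap. E2F1 stood at 318, 371 and 146, 2.54-fold lower in S than in G1/S (interval 2.15 to 3.00). MCM2 stood at 182, 404 and 299 in G1, G1/S and S, 2.22-fold higher in G1/S than in G1 (interval 1.88 to 2.61). CCNE1, the cyclin that partners CDK2 at S phase entry, was at 381, 406 and 266. CDK2 was at 779.99, 613 and 207, 3.76-fold lower in S than in G1 (interval 3.33 to 4.26). CCND1, the cyclin of early G1, was highest in G1/S, at 2651, 4424 and 2331. CDKN1A, a CDK inhibitor, went the other way, at 1633, 422 and 2176, with S 5.16-fold above G1/S (interval 4.66 to 5.73). CDT1, which licenses origins in G1, was at 2021, 2347 and 1349, and thus lowest in S. PCNA, the sliding clamp of the replication fork, stayed at 31.0, 30.2 and 30.7, with intervals that overlap throughout, but its region held only 29 to 52 reads per library. The cycle genes thus did not share 1 course over the labelled phases, as the plot of these genes shows.

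**Figure D1:**
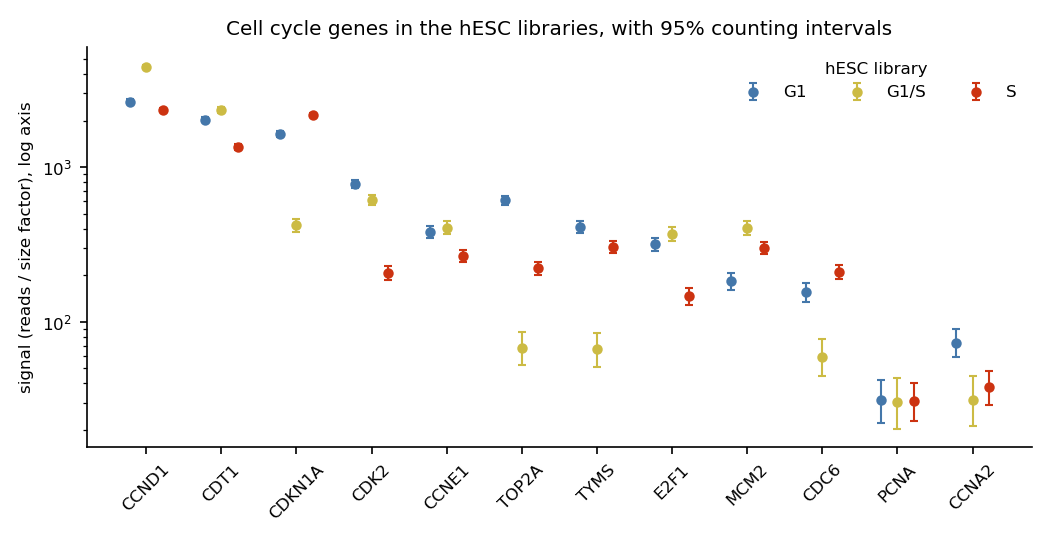
Signal (reads divided by the size factor, log axis) of 12 cell cycle genes in the hESC G1, G1/S and S libraries, with the exact 95% counting interval of each value as bars. CDKN1A, TOP2A, TYMS and CDC6 are lowest in G1/S, CDK2, E2F1, CCNE1 and CDT1 are lowest in S, and PCNA is level.

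Genes of the replication fork and nucleotide supply were past 2-fold only downward in G1/S against G1. Of 40 measured, 0 were past 2-fold higher and 14 lower in G1/S than in G1, a median difference of -0.62 against 0.07 over all 9588 gene names (1 region each). Over all names, 7.47% were past 2-fold higher and 17.9% lower in that comparison. TYMS, which makes thymidylate, had a signal of 411, 66.6 and 304, 6.17-fold lower in G1/S than in G1 (interval 4.75 to 8.12). DNMT1, which copies DNA methylation onto new strands, was at 303, 32.3 and 80.3. A weaker region of DNMT1 was at 55.2, 29.15 and 72.7, and so did not stay low in S. From G1/S to S, 11 members were higher and 1 lower, where 16.6% of all names were higher and 7.91% lower. RFC3, a subunit of the clamp loader, was 8.85-fold higher in S than in G1/S (interval 4.69 to 18.8), from 18.2 in G1 and 10.4 in G1/S to 92.1. Between G1 and S, 4 members were higher and 9 lower, beside 9.67% and 8.98% of all names. Not every member shared this course: TK1, the thymidine kinase, was at 2808, 4490.5 and 3359.9.

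Genes of origin licensing and G1/S control took mixed courses. Of 26 measured, 3 were past 2-fold higher and 3 lower in G1/S than in G1, beside 7.47% and 17.9% of all names, and 2 higher and 4 lower in S than in G1, beside 9.67% and 8.98%. GINS2, of the replicative helicase, was the member with the largest dip, at 708, 176 and 873 (4.96-fold from G1/S to S, interval 4.23 to 5.85). Of 41 genes of G2/M and mitosis, 9 were lower and 4 higher in G1/S than in G1, near those shares of all names. TOP2A, the topoisomerase of chromosome segregation, was at 611, 67.7 and 222, 9.02-fold lower in G1/S than in G1 (interval 7.00 to 11.8). CENPN, of the inner kinetochore, was at 93.1, 22.9 and 201. PLK1, a mitotic kinase, took the opposite course, at 71.9, 214 and 131. Polyadenylated histone transcripts gave 2 higher and 1 lower of 12 in that comparison. H2AFX, the histone variant marked at DNA breaks, was level at 18.9 and 21.9 and then 65.6 in S, 3.47-fold above G1 (interval 2.23 to 5.59).

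Pluripotency genes were present in each phase. SOX2 was at 1917, 1537 and 1391 in G1, G1/S and S, and DNMT3B, a de novo methyltransferase, at 469.8, 453 and 393. UTF1, a chromatin factor of pluripotent cells, was at 1329, 1501 and 715. POU5F1 was at 154, 596 and 259, 3.88-fold higher in G1/S than in G1 (interval 3.30 to 4.57). POU5F1 has near-identical copies in the genome, and a second region under its name on chromosome 8 was at 31.0, 9.37 and 8.86, so its values are uncertain. LEFTY1, a nodal antagonist, took the widest course of the list, at 2933, 281 and 9399, 33.4-fold higher in S than in G1/S (interval 29.6 to 37.9). LEFTY1 has a near-identical neighbour, LEFTY2, so reads may be shared. Over the 22 measured members, 2 were past 2-fold higher and 5 lower in G1/S than in G1, near the 7.47% and 17.9% of all names, and 4 higher and 1 lower in S than in G1, beside 9.67% and 8.98%.

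Markers of other cell types were read to check the label. The 7 measured definitive endoderm markers summed to between 366 and 437 in the hESC libraries, against 6323 to 11880.1 in endoderm, and SOX17 itself was at 4.54, 1.04 and 1.77. Of 6 mesoderm markers, 3 were measured, with a sum of 96.8, 95.8 and 88.6, against 728, 1466 and 294 in endoderm. Of 5 neuroectoderm markers, 2 were measured, at 7474, 8962 and 5889 in sum, nearly all of it NES. The 1 trophoblast marker measured of 5 was at 160, 250 and 220, against 22.8, 41.6 and 56.5 in endoderm. CGB2, a chorionic gonadotropin gene not on the list, was at 10407, 1518 and 2378, against 87.7, 220 and 180 in endoderm. CGB1, of the same family, also fell and then rose, by -3.60 in G1/S minus G1 and 1.37 in S minus G1/S. Whether CGB1 and CGB2 share reads was not tested. Fibroblast and stromal markers were not at 0: 6 of 7 were measured, with a sum of 26573, 42236 and 28959. Most of that sum is TAGLN, an actin-binding protein, at 18767, 32120.4 and 19192, followed by THY1, which hESCs also carry, at 3340.1, 5536 and 4288. COL1A1 was at 1712, 3482 and 3479. The part of such cells in the differences below was not tested.

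In G1/S against G1, 1892 regions (12.9%) were past 2-fold higher and 2684 (18.3%) lower, with a median difference of 0.10. The counting interval excludes equality in 86.0% of the regions past 2-fold, and lies wholly beyond 2-fold in 570 higher regions (3.88%) and 1057 lower ones (7.20%). Past 8-fold were 134 higher regions and 352 lower ones, so the largest differences were mostly lower values in G1/S. In S against G1, 2264 regions (15.4%) were higher and 1483 (10.1%) lower, with 1107 (7.54%) and 445 (3.03%) wholly beyond 2-fold. Past 8-fold, 418 were higher and 24 lower. In S against G1/S, 2802 (19.1%) were higher and 1321 (8.99%) lower, with 1330 (9.06%) and 357 (2.43%) wholly beyond 2-fold. Past 8-fold, 560 were higher and 14 lower. Scaled by library totals instead, 29.6% of the regions past 2-fold in G1/S against G1 were higher, not 41.3%, and in S against G1/S 83.5%, not 68.0%. These comparisons share libraries, so 1 library that stands apart enters 2 of them.

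The share past 2-fold was largest among weak regions and did not vanish among strong ones. Regions were put into 4 groups of equal size by their mean. In the weakest group, with a mean signal of up to 15.7 over the 3 libraries, 42.3% of regions were past 2-fold in G1/S against G1, 40.1% in S against G1 and 36.5% in S against G1/S. In the strongest group, from 149 upward, the shares were 16.2%, 10.9% and 18.1%. The median counting error of a difference fell from 0.70 to 0.09 on the log2 scale between those groups in G1/S against G1, while the SD of the differences fell less, from 1.35 to 0.93. In the strongest group the interval excluded equality for 100% of the regions past 2-fold in each comparison. The direction shifted too: in S against G1/S, 27.7% of the weakest group were higher and 8.74% lower, but in the strongest group the shares were 8.99% and 9.10%. The plot by group of expression shows both directions.

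**Figure D2:**
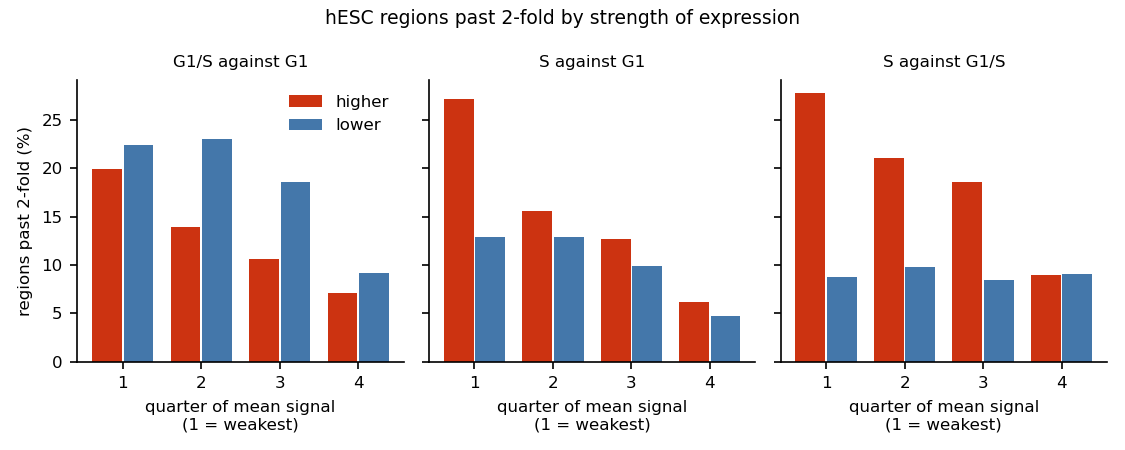
Share of hESC regions (%) past 2-fold higher (red) or lower (blue) on log2(value + 1), by 4 groups of equal size of the mean signal over the 3 libraries, for each pair of phases. In G1/S against G1 the bars go from 19.9% higher and 22.4% lower in the weakest group to 7.05% and 9.12% in the strongest.

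Regions without a gene name were more often past 2-fold higher, and short regions were more often past 2-fold both ways. In S against G1, 29.6% of the unnamed regions were higher, against 9.50% of the named ones, and in G1/S against G1 25.5% against 7.61%. Unnamed regions were also weaker, with a median mean signal of 17.6 against 63.0, and shorter, with a median span of 143 bases against 204. The weakest expression group, named or not, had 27.2% higher in S than in G1 and the strongest 6.18%, and the part of signal strength in the contrast of unnamed and named regions was not tested. Regions with a mean of at least 20 were also split by span. Of those spanning 92 to 142 bases, 22.0% were past 2-fold higher and 12.3% lower in S than in G1. Of those spanning 237 bases or more, 8.08% were higher and 4.16% lower. The unnamed region chr7:100569111-100569308 (coordinates as deposited, where the submitters' processing notes name hg18 and NCBI36) was at 239.8, 1313 and 2265. The unnamed region chr6:40034183-40034290 was at 1995, 90.6 and 4844.

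The differences also followed the base content of the transcripts. For 9878 named regions a GC content was computed over the final 500 bases of 1 transcript. Across these regions the G1/S minus G1 difference had a Spearman correlation of 0.34 with GC content, the S minus G1/S difference one of -0.44 and the S minus G1 difference one of -0.09. These are descriptions across regions of the same libraries, which are not independent replicates. Where GC content was lowest, at 23.4% to 37.4%, 34.5% of regions were past 2-fold lower in G1/S than in G1, and where it was highest, from 55.6% upward, 4.70%. The replication fork list has a median GC content of 41.7% and the p53 target list one of 40.0%, below the 46.8% of all named regions with a value, and the part of GC content in their courses was not tested.

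Regions were sorted by what they did at each step. Of all 14686, 8205 (55.9%) stayed within 2-fold at both steps. The most frequent course with both steps past 2-fold was down and then up, in 1508 regions (10.3%), while 400 went up and then down, 285 went up at both steps and 25 went down at both. Steps that share the G1/S library pull apart by construction, so a low G1/S value counts in both. The plot of both steps shows a long arm of names with low G1/S values and only scattered names in the other corners.

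**Figure D3:**
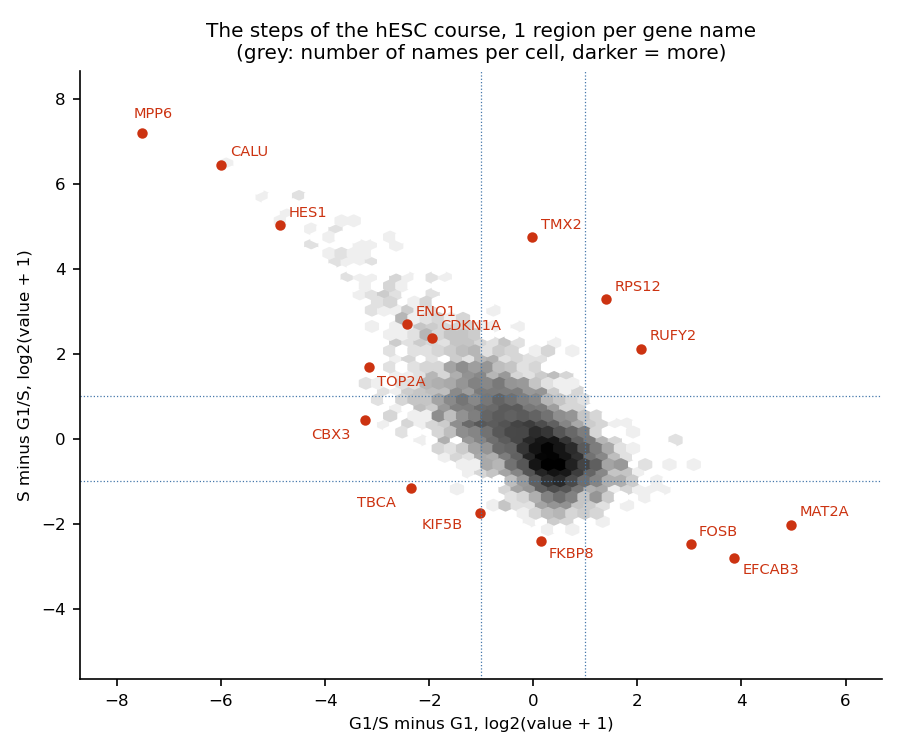
G1/S minus G1 (x) against S minus G1/S (y), both on log2(value + 1), for the 7505 gene names with a mean signal of at least 20. Grey cells give the number of names, dotted lines mark 2-fold, and red points are genes described in the text, with MPP6, CALU and HES1 far along the arm of low G1/S values.

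A group of regions nearly vanished from the hESC G1/S library but not from G1 and S. In 267 regions, 177 of them named, G1/S was at least 8-fold below both G1 and S, a threshold chosen after the values were seen. Their median signal was 37.1, 1.04 and 55.5, beside 36.3, 33.3 and 38.4 over all regions. CALU, a calcium-binding protein of the secretory pathway, was at 1586.5, 23.9 and 2183, 66.3-fold lower in G1/S than in G1 (interval 44.0 to 105). HES1, a transcription factor of the Notch pathway, was at 1184, 39.6 and 1328, 29.9-fold lower (interval 21.7 to 42.5). MRPS24, of the mitochondrial ribosome, was at 1695, 68.7 and 2492, 24.7-fold lower (interval 19.3 to 32.0). G1 and S were within 1.5-fold of each other in these 3 genes. TOMM7, of the mitochondrial import pore, was at 2305, 108 and 5676, and UBB, a polyubiquitin gene with close copies, at 949, 87.5 and 2741. For MPP6, a membrane scaffold, 241 reads in G1 and 248 in S met 0 in G1/S. Its signal of 182 in G1 was thus at least 47.1-fold higher (lower limit of the interval). EPHB1, an ephrin receptor, was likewise at 71.1, 0 and 51.4, at least 18.2-fold higher in G1 than in G1/S.

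WIBG, which recycles exon junction complexes, was at 364, 4.16 (4 reads) and 478. ANKRD10, an ankyrin repeat protein, had 1 read in G1/S and a signal of 209.6 in G1 and 75.02 in S, a ratio of 201 between G1 and G1/S with a lower limit of 35.8. ERMP1, KIAA1704, KCND1 and the main region of MED1, a subunit of Mediator, also had 0 reads in G1/S, with signals of 51.4 to 66.6 in G1 and 43.1 to 148 in S. These names complete the 10 with the largest negative difference in G1/S against G1, together with C10orf46, at 252, 3.12 and 113.

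These regions were low in the endoderm libraries as well, at the median. Their median endoderm signals were 4.14, 1.66 and 3.42. The regions were chosen for hESC G1 and S values at least 8-fold above G1/S. A lower level elsewhere thus follows in part from the choice and is given as a description. CALU was at 49.0, 53.2 and 59.9 in the endoderm libraries, and MRPS24 at 191, 96.5 and 134. HES1 was at 83.5, 51.6 and 61.6 there. For these 3 genes, hESC G1 and S were above the other 4 libraries, and the plot of 10 such names gives all 6 values.

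**Figure D4:**
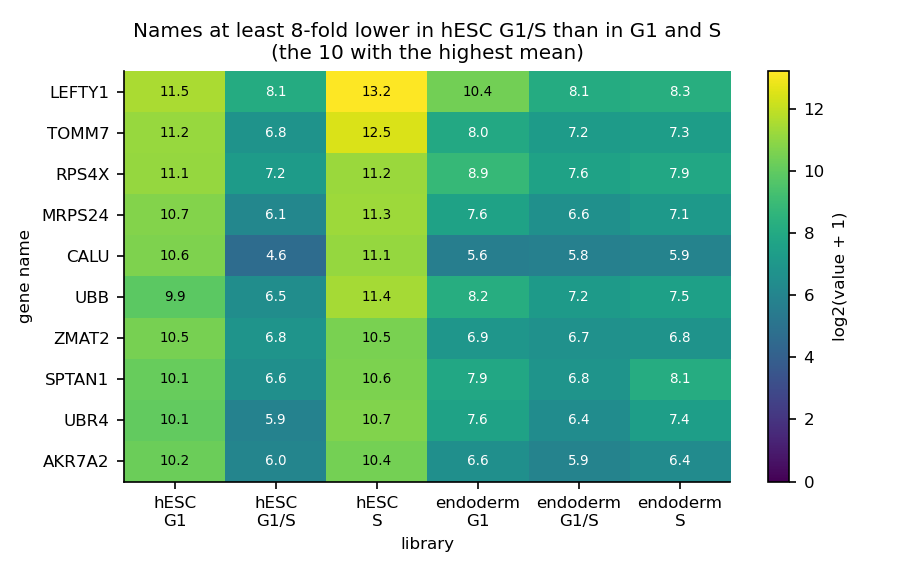
log2(value + 1) in each of the 6 libraries (columns) for the 10 gene names with the highest mean (rows) among those at least 8-fold lower in hESC G1/S than in hESC G1 and S. By the choice of rows, the hESC G1/S value is the lowest of the 3 hESC values in each row. CALU, at 1586.5 and 2183 in hESC G1 and S, is at 59.9 or below in the other 4 libraries.

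For some genes, another region of the same name did not follow. A region of CALU at chr7:128182410-128182578, upstream of the main one at chr7:128198515-128198762, was at 56.7, 55.2 and 40.8 in G1, G1/S and S. Another region of MED1 was at 17.4, 16.7 and 36.0. PDGFB, a growth factor, was at 1303, 752 and 258 in its main region and at 69.6, 240.5 and 187.8 in another. Of 389 names with at least 2 regions of mean 20 or more, the leading regions were both past 2-fold in the same direction for 21 names in G1/S against G1, in opposite directions for 9, and 1 alone was past it for 152. In S against G1 the counts were 7, 3 and 132.

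In 44 regions, 10 of them named, G1/S was at least 4-fold above both other phases. FOSB, an immediate early AP-1 transcription factor, was at 29.5, 247 and 43.7, 8.36-fold above G1 (interval 5.94 to 12.1) and 5.64-fold above S (interval 4.33 to 7.43). Its endoderm signals were 17.3, 1113 and 58.2. JUNB, of the same family, was at 52.96, 269.7 and 106, and NAB2, a corepressor of EGR factors, at 142, 465 and 200.2. FOSL1 was at 649.9, 1548 and 1181. EGR1, an early response factor, went the other way, at 75.7, 28.1 and 48.4, and FOS was at 15.1, 12.5 and 11.8 with intervals that overlap. Of 36 measured immediate early genes, 8 were past 2-fold higher and 5 lower in G1/S than in G1, with a median difference of 0.34, beside 7.47%, 17.9% and 0.07 over all names. In S against G1, 8 were higher and 1 lower, beside 9.67% and 8.98%. HES1, given above, is 1 of its 5 lower members.

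MAFF, a small basic leucine zipper factor, was at 18.9, 263 and 113, 13.9-fold above G1 (interval 9.22 to 21.9). MAT2A, which makes S-adenosylmethionine, had 2 reads in G1, and its signals of 1.51, 77.0 and 18.3 give a ratio of 50.9 with an interval of 13.6 to 428. EFCAB3 was at 13.6, 210.3 and 29.5. EIF5A, a translation factor, was at 37.8, 357 and 99.2, 9.44-fold above G1 (interval 7.00 to 13.0), and NHP2, of the box H/ACA particles, at 20.4, 204 and 61.4. ALAS2, the erythroid enzyme of heme synthesis, had 0 reads in G1 and signals of 44.8 in G1/S and 33.7 in S. These were at least 15.4-fold and 11.7-fold above G1 (lower limits of the intervals). SETD6, a lysine methyltransferase, and TNFSF9, a ligand of the tumor necrosis factor family, were 14.9-fold (interval 6.91 to 38.4) and 18.2-fold (interval 6.72 to 69.4) above G1. The remaining 2 of the 10 names with the largest positive difference, C6orf223 and AK125951, had 2 reads each in G1. MAFF and EIF5A had the lowest of their 6 values in hESC G1. In endoderm, MAFF was at 349, 261 and 279, and EIF5A at 229.9, 311 and 972. Of 326 regions with G1/S and S at least 4-fold above G1, 14.7% have a gene name, against 70.6% of all regions. In 266 of them (81.6%) all 3 endoderm values were also more than 4-fold above hESC G1, beside 6.95% of all regions. The 326 regions were chosen for low hESC G1 values relative to G1/S and S, so this follows in part from the choice.

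The names with the largest positive S against G1 difference were mostly weak in G1, which follows in part from ranking by that difference. RPS12, of the small ribosomal subunit, was at 55.2, 148 and 1447, 26.2-fold above G1 (interval 20.8 to 33.5). Its region spans 94 bases, and ribosomal protein genes have many processed copies, so reads may be shared. TMX2, a membrane thioredoxin-like protein, was at 5.30, 5.21 and 165, 31.2-fold above G1 (interval 15.0 to 78.4). UQCRQ, of respiratory complex III, was at 135, 117 and 1472, 10.9-fold above G1 (interval 9.34 to 12.7). PEX19, which inserts peroxisomal membrane proteins, was at 15.1, 3.12 and 227, and GSTO2, a glutathione transferase, at 8.32, 2.08 and 123. RARB, a retinoic acid receptor, was at 3.78, 14.6 and 98.6. RUFY2 was at 13.6, 60.4 and 266 and RNF115, a ubiquitin ligase, at 4.54, 13.5 and 74.4, so that both were higher at each step. ATL3, which shapes the endoplasmic reticulum, was at 3.03, 2.08 and 56.7.

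Names far lower in S than in G1 included strong ones. TBCA, a tubulin folding cofactor, was at 2748.5, 538 and 240.4, 11.4-fold lower in S (interval 10.3 to 12.7). CBX3, a heterochromatin protein of the HP1 family, was at 4006, 427 and 580.1, 6.91-fold lower in S (interval 6.45 to 7.40). Both were high in all 3 endoderm libraries, at 2552, 2176 and 3190.5 for TBCA and at 3162, 2171 and 3018 for CBX3. GOLGA2, a Golgi matrix protein, was at 229.99, 9.37 and 34.9, and PPP2R3C, a regulatory subunit of protein phosphatase 2A, at 274, 31.2 and 37.8. MPHOSPH6, of ribosomal RNA processing, and NTM, a neural adhesion protein, were at 215, 42.7 and 33.7 and at 197, 32.3 and 31.9. NCAPH, of condensin, was at 49.2, 4.16 and 7.09, and VRK2, a kinase, at 47.7, 7.29 and 5.91. In a weaker region of NCAPH, at 18.9, 7.29 and 15.95, S and G1 were within 2-fold. KIF5B, a kinesin heavy chain, was at 90.03, 43.7 and 12.4, and MAGI1, a junction scaffold, at 172, 44.8 and 20.7. Among 101 regions with G1 at least 4-fold above G1/S and S, 75.2% have a gene name, near the 70.6% of all regions.

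A steady course over all 3 libraries was rare. Of 7505 names with a mean of at least 20, 74 (0.986%) were higher and 60 (0.799%) lower at both steps by at least 0.5 on the log2 scale. Beside RPS12 and RUFY2, PRAM1 was at 10.6, 62.5 and 138. EIF2S2, a subunit of the initiator tRNA factor, was at 1922, 705 and 337, 5.70-fold lower in S than in G1 (interval 5.20 to 6.25). PDGFB and TBCA followed the same order in their main regions. FKBP8, a chaperone of the mitochondrial outer membrane, was level between G1 and G1/S, at 1013 and 1118, and then at 210.3, 5.32-fold lower in S than in G1/S (interval 4.71 to 6.01). CLDN5, a claudin of tight junctions, was at 14.4, 43.7 and 4.13.

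Single genes of glycolysis and of the amino acid response were low in G1/S, while others of the same lists were highest there. ENO1, the glycolytic enolase, was at 23562, 4409 and 28679, 5.34-fold lower in G1/S than in G1 (interval 5.17 to 5.52). PFKP, a phosphofructokinase, was at 678, 337 and 2275, and HK1, a hexokinase, at 691, 419.6 and 1494.5. A far weaker region of PFKP did not follow, at 17.4, 21.9 and 11.8. ALDOA and PKM2 had their highest value in G1/S, at 8469, 14214 and 6084 and at 5597, 12283 and 5867. Of 23 glycolysis and hypoxia genes, 2 were past 2-fold higher and 4 lower in G1/S than in G1, close to the 7.47% and 17.9% of all names, and 5 higher and 0 lower in S than in G1, beside 9.67% and 8.98%. ATF4, the factor that drives the amino acid response, was at 94.6, 8.33 and 154, and its known targets SLC7A11, a cystine transporter, and PHGDH, of serine synthesis, at 88.5, 7.29 and 96.9 and at 3514, 713 and 3816.5. CHAC1, another target, differed, at 214, 169.7 and 702, and SLC7A5, an amino acid transporter, was highest in G1/S, at 1498, 3233 and 2212. The 27 genes of the unfolded protein and amino acid stress response held 5 past 2-fold higher and 3 lower in G1/S than in G1, beside 7.47% and 17.9% of all names. In S against G1/S they held 8 higher and 0 lower, beside 16.6% and 7.91%.

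Targets of p53 gave 1 past 2-fold higher and 8 lower of 25 in G1/S against G1, beside 7.47% and 17.9% of all names, with a median difference of -0.59 against 0.07. Between G1 and S, 0 of the 25 were past 2-fold, beside 9.67% higher and 8.98% lower of all names. RPS27L was at 971, 168 and 529.9 in G1, G1/S and S, 5.79-fold lower in G1/S than in G1 (interval 4.91 to 6.86), and DDB2, a sensor of DNA damage, at 1215, 464 and 1596. MDM2, the ubiquitin ligase that restrains p53, was at 136, 55.2 and 93.3. A weaker region of MDM2, not counted in the list, was at 37.8, 26.0 and 8.27, past 2-fold lower in S than in G1. BBC3, a death-promoting member of the BCL2 family, had its highest value in G1/S, at 1146, 1866 and 1144. CDKN1A, given above, was likewise lowest in G1/S.

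The large housekeeping families split within themselves. Their counts stand beside 7.47% higher and 17.9% lower of all names in G1/S against G1, 9.67% and 8.98% in S against G1, and 16.6% and 7.91% in S against G1/S. Of 60 cytosolic ribosomal proteins, 13 were past 2-fold higher and 11 lower in G1/S than in G1, and 14 higher and 3 lower in S than in G1. RPL23 was at 1906, 339 and 5654, 16.7-fold higher in S than in G1/S (interval 14.9 to 18.7). Of 71 mitochondrial ribosomal proteins, 3 were higher and 14 lower in G1/S than in G1, and 21 higher and 2 lower in S than in G1/S. Of 80 respiratory chain subunits, 3 were higher and 12 lower in G1/S, among them COX6A1 at 782, 156 and 1307. Translation factors gave 5 higher and 18 lower of 58 in G1/S, a median difference of -0.30. PABPC4, a poly(A) binding protein, was at 7473, 1059.9 and 2457, 7.05-fold lower in G1/S than in G1 (interval 6.61 to 7.53). Of 35 hnRNP and SR proteins, which bind and splice pre-mRNA, 3 were higher and 11 lower in G1/S than in G1, with a median GC content of 36.0%. SFRS11 was at 1199, 151 and 276. Proteasome subunits gave 2 higher and 10 lower of 37, and numbered zinc finger genes 10 higher and 43 lower of 176. The plot of list medians sets these beside the other lists.

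**Figure D5:**
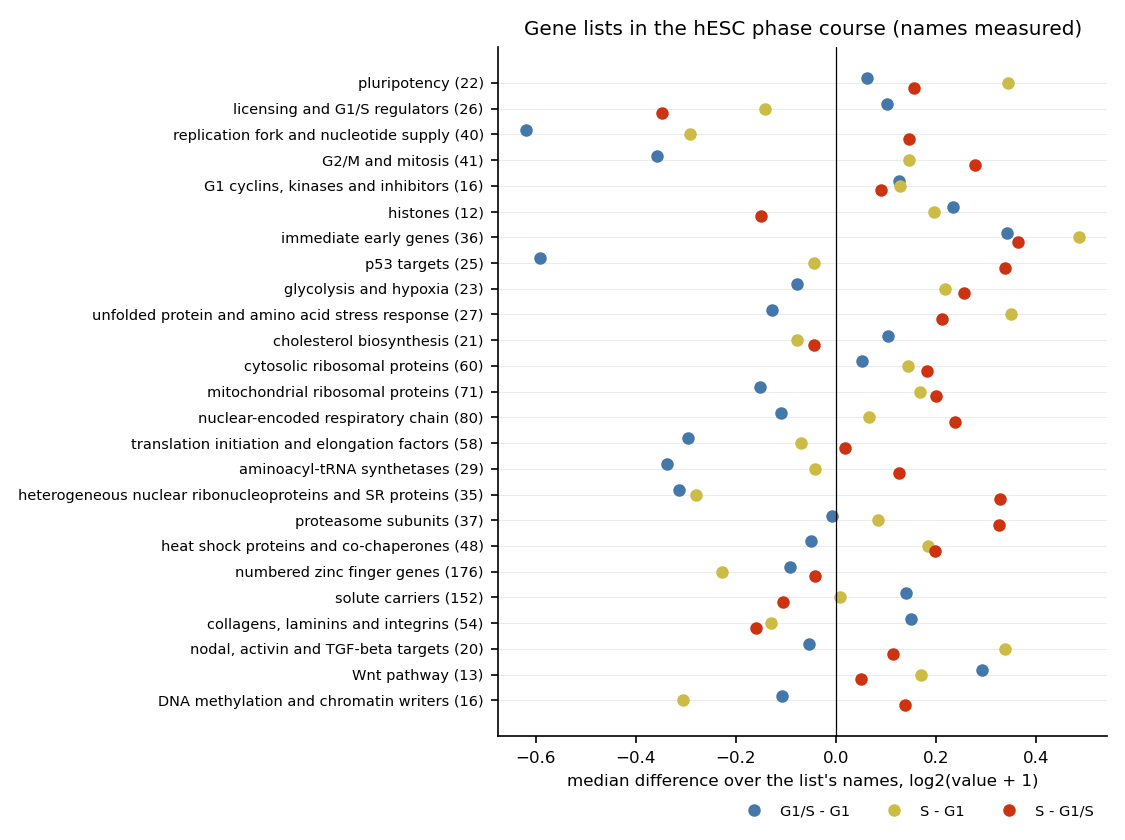
Median difference on log2(value + 1) over the measured names of each list (rows, number of names in brackets) for G1/S minus G1, S minus G1 and S minus G1/S. The lists of the replication fork and of p53 targets lie farthest left of the 25 lists drawn for G1/S minus G1, at -0.62 and -0.59, where the median of all names is 0.07.

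Set beside the endoderm course, the S against G1 differences of hESCs seldom had a counterpart. Regions past 2-fold higher in hESC S than in G1 were past 2-fold higher in endoderm S for 9.01% and lower for 18.9%, where all regions gave 10.5% and 12.6%. Across all 14686 regions the S minus G1 differences of both cell types had a Pearson correlation of -0.10 and a Spearman correlation of -0.08, a description across regions of 2 pairs of libraries with no library in common. Regions past 2-fold lower in hESC G1/S than in G1 were lower in endoderm G1/S for 38.9% and higher for 7.15%, beside 21.7% and 14.9% of all regions. Those past 2-fold higher in hESC G1/S were lower in endoderm G1/S for 21.5% and higher for 18.4%, beside the same shares of all regions. The G1/S minus G1 differences of both cell types had a Pearson correlation of 0.22 and a Spearman correlation of 0.27. For S minus G1/S these were 0.31 and 0.36. The hours of the libraries differ between the cell types, so the values are set side by side only.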

How the data were processed

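Libraries of 3' read ends came from 3 hESC and 3 endoderm samples, 1 per cell type and phase, and the labels name no separate cultures. Tools listed in the submitters' processing notes are Bowtie 0.12.7, CASAVA 1.5 and DESeq 1.5.24, and the builds are NCBI36 and hg18, with no roles stated. The authors deposited 1 table of linear signal values for 14686 regions with positions and, for 10368 of them, a gene name. At a tolerance of 1e-06, every library's deposited signal values (100%) proved to be multiples of 1 step, which gave back the reads. No count test was fitted to them, because 3 libraries of 3 phases leave no residual degrees of freedom. No column of values was left unused (0).

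Differences of log2(value + 1) were taken between libraries, with exact Clopper-Pearson 95% intervals of the ratio and Poisson intervals of the values, in Python 3.11.15 with scipy 1.17.1. The interval code was tested on simulated data. For lists and named genes, a name with several regions (719 of 9588) was represented by the one with the highest mean. Gene names were matched to current symbols (7978), older ones (1159), several genes (68) or none (383) for GC content, which came from the last 500 bases of GENCODE 29 transcripts and covers 95.27% of the named regions. Annotation of the build of the regions was not used here, so no exon or UTR is given. Promoters came from RefSeq.

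Genes were named by rule: with a mean of at least 20 and an interval excluding a ratio of 1, the 10 largest differences each way in G1/S against G1 and in S against G1, the 5 largest in S against G1/S, the 8 largest steady courses each way, and in each of 30 lists the up to 4 widest members and those that define the list. Other list members printed, the pattern thresholds with their examples and the promoters were chosen after their values were seen. The members and lists were chosen with earlier results of these data known. Alternatives covered the pseudocount, the scaling (library totals, TMM in edgeR 4.0.16 under R 4.3.3), a filter on low values, regions summed by name, GC content and a stricter threshold.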

Additional observations from a re-analysis of the deposited data

Results flagged for a closer look

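The following 4 named genes stood at least 2-fold lower in hESCs and at least 2-fold higher in endoderm in the same pair of phases. Each side is 1 pair of libraries, and the difference between cell types was not tested. ANKRD10 had a G1/S minus G1 difference of -6.69 in hESCs and 1.41 in endoderm, where the latter rests on 1 read in G1/S and 0 in G1. Another region of ANKRD10 was lower in G1/S than in G1 in both cell types, with 36.4 after 99.9 in hESCs and 3.33 after 49.0 in endoderm. MAGI1 had an S minus G1 difference of -3.001 in hESCs and 1.29 in endoderm, with endoderm signals of 84.2 in G1 and 207 in S. Another region of MAGI1 went the opposite way in each, from 55.98 to 66.8 in hESCs and from 81.5 to 47.9 in endoderm. VRK2 differed by -2.82 in hESCs and 1.63 in endoderm. KIF5B differed by -2.76 and 1.88, with endoderm signals of 34.5, 136 and 130.1 over the phases.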

How the results depend on the processing

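No paired analysis was possible because each phase has 1 library and the labels give no replicate numbers. The counts of regions past 2-fold were 4576 in G1/S against G1, 3747 in S against G1 and 4123 in S against G1/S. They stayed within 1.5 times of these under pseudocounts of 0.5 and 5 and under both other scalings. They were 2557, 1909 and 2401 among regions with a mean of at least 20, 2388, 1746 and 2311 with the regions of a name summed, and 1627, 1552 and 1687 where the whole counting interval had to lie beyond 2-fold. The 9878 regions with a GC value gave 2598, 1885 and 2438, and after correction for a trend on GC content 2365, 1753 and 2021. The first 4 of these settings leave fewer regions or ask for more, by construction. For the correction itself, the cause was not tested.

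Scaling moved the balance of directions. Of the regions past 2-fold, 41.3% were higher in G1/S against G1 as deposited, 29.6% when scaled by library totals and 33.4% by TMM. In S against G1/S the shares were 68.0%, 83.5% and 77.51%. Library totals moved the median difference of all regions from 0.10 to -0.11 in G1/S against G1 and from -0.05 to 0.20 in S against G1/S, so a list median closer to 0 than this shift can change sign, and list medians are given against the median of all names. Of 373 gene and comparison pairs past 2-fold among the named genes, 356 stayed so under totals, 364 under TMM and 325 with a pseudocount of 5. Depth limits weak regions most, since the G1/S library is worth 1.04 per read and regions in the weakest of the 4 expression groups hold a median of 8 to 18 reads in a library.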

Other observations

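Mitochondrial regions held 3.03%, 2.60% and 1.97% of the reads of the hESC G1, G1/S and S libraries. Within it, the unnamed region chrM:1634-1926 was at 1238.5, 8072 and 1297 over these phases in hESCs and at 801, 9945 and 686 in endoderm, highest in G1/S in both cell types. The unnamed region chrM:1212-1485 went the other way in hESCs, at 1912.5, 221 and 2257. COL8A1, a short-chain collagen, was at 509.9, 88.5 and 100.4, while NES, an intermediate filament protein of neural progenitors that hESCs also carried, was at 7469, 8959 and 5882. Among genes of cholesterol synthesis, MVD was at 889, 938 and 331 and FDFT1 at 910.1, 469.6 and 1452.5, so members of 1 pathway took opposite courses from G1/S to S.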
